A study of Homo sapiens with 30 samples.

Results

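The H3K27ac domains of 8 kb or more were 463 regions of 63580 H3K27ac peaks, or 0.728%, in the human B-cell lymphoma line OCI-Ly1. They were chosen from the deposited peak table by width alone: every peak on chromosomes 1 to 22 and X whose end minus start was at least 8000 bp. Width was called from H3K27ac itself, so the strong signal of these peaks is a description and supports nothing. OCI-Ly1 is a line of diffuse large B-cell lymphoma of germinal-centre B-cell type, and all groups carry its genome. Cells received JIB-04, which inhibits histone demethylases of the Jumonji family, at 150 nM or 500 nM, or 0.01% DMSO, the solvent, as control. The treatment time is not given in the sources used here. Chromatin immunoprecipitation with sequencing (ChIP-seq) gave 2 libraries per treatment for each mark, and nothing in the labels says whether the 2 came from separate cultures, so the p-values measure the spread between libraries. H3K27ac and H3K4me3 were analysed, 12 of the 30 libraries in the series.

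H3K27ac is an acetylation of histone H3 placed by CBP and p300 at active enhancers and promoters. Long, densely acetylated stretches, often called super-enhancers or stretch enhancers, tend to lie near genes that define a cell's identity, in B cells the immunoglobulin loci and lineage transcription factors. H3K4me3 is a methylation placed at active promoters by the SET1 and MLL complexes and removed by the KDM5 enzymes, which belong to the Jumonji family that JIB-04 inhibits. Acetylation is removed by a different class of enzyme, the histone deacetylases.

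The domains covered 506 distinct genes of the GRCh38.p14 annotation, 280 of them protein-coding and 142 long non-coding. Promoter sequences are shown for 4 genes whose start lay inside a domain and whose H3K4me3 at that start differed between 500 nM JIB-04 and DMSO, because the start is where H3K4me3 is placed. They were picked after the values were seen. ADM (chr11:10304823-10305122, plus strand) and CSK (chr15:74788294-74788593, plus strand) lost H3K4me3, and ZBTB38 (chr3:141384555-141384854, plus strand) and LAPTM5 (chr1:30757725-30758024, minus strand) gained it. Each window runs from 250 bases before to 50 after the start, 5′ to 3′ on the gene's strand (RefSeq, GRCh38.p14). Capitals mark matches, on either strand, to the GC box GGGCGG, the CCAAT box CCAAT or the TATA element TATAAA.
ADM: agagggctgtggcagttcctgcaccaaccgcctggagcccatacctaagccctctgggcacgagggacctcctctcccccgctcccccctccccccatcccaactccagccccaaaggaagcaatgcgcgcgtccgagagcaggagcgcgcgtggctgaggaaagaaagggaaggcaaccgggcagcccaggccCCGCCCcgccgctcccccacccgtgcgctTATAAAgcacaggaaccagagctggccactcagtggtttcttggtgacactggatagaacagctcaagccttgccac
CSK: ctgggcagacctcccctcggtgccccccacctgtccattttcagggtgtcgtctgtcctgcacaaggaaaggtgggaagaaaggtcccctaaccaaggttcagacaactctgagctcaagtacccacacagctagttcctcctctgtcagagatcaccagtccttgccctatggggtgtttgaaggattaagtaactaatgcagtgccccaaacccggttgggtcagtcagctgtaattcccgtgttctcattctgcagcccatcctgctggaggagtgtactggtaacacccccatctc
ZBTB38: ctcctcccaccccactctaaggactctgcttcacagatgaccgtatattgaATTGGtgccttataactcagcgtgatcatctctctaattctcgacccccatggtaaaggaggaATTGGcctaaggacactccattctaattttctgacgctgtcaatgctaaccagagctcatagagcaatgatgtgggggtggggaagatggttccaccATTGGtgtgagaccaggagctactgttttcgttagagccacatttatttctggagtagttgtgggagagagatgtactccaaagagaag
LAPTM5: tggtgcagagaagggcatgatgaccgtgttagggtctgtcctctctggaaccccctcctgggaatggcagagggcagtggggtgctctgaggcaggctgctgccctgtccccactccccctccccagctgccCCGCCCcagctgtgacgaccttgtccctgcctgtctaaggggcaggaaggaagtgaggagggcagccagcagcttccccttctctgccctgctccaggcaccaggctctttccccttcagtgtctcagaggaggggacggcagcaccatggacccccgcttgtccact

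The ADM window held 1 GC box, 1 TATAAA and 16 CG dinucleotides. ZBTB38 held 3 CCAAT boxes, LAPTM5 1 GC box and CSK none of the motifs searched, and these 3 windows held 4 or 5 CG dinucleotides each. Over all 212 starts inside the domains the median was 9 CG dinucleotides, against 27 for the 7810 starts inside H3K27ac peaks of 1 to 3 kb and 14 for all 35116 promoters of the table. The GC box stood in 40.1% of the starts in domains, 69.5% of those in 1 to 3 kb peaks and 45.0% of all. TATAAA was found in 18.4%, 4.43% and 11.5% in the same order. The octamer ATGCAAAT, bound by POU2F1 and POU2F2, was found in 4.72%, 1.11% and 1.77%. Of the 10 octamer-bearing starts, 6 belonged to clustered histone genes, which are known to use this element, and so did 11 of the 39 with TATAAA. Without the 13 histone starts the octamer stood at 2.01% and TATAAA at 14.1%. The CCAAT box (29.3%, against 34.1% and 34.6%), the ETS motif CCGGAAGT (2.83%, against 11.04% and 4.14%) and the cyclic-AMP element TGACGTCA (1.42%, against 3.87% and 1.85%) made up the rest of the search, on both strands.

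Of the 1562 microRNA hairpins in the RefSeq sequence table, 10 lay in a domain, and the gene annotation placed 16 microRNA genes there. The best known of them in blood cells is MIR142, from which both strands are used. Its mature sequences are shown because they are the products of one of the widest domains, with the seed (bases 2 to 8) in capitals. The 2 seeds differ.
hsa-miR-142-5p: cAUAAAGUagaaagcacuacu
hsa-miR-142-3p: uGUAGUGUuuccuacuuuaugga

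Domain widths ran from 8005 to 54021 bp with a median of 9782 bp. Of the 463, 206 were at least 10 kb wide and 26 at least 20 kb. Together they spanned 5.253 Mb, 7.91% of the length of all H3K27ac peaks. Just inside the threshold lay domains of 8005, 8006 (in ARID5B) and 8008 bp, with log2 fold changes of 0.29, 0.03 and -0.06 at 500 nM against DMSO. Just outside lay peaks of 7988 (in TCF4), 7987 and 7983 bp (LINC01089 and SETD1B), at -0.14, -0.10 and 0.08. The mean count per library was 1134 for the median domain and ranged from 355.5 to 9327, while the median 1 to 3 kb peak had 111. Per kb of length the median domain had 22.4 CPM (counts scaled to the library's reads in peaks), a 3 to 8 kb peak 18.0 and a 1 to 3 kb peak 13.7.

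Most domains lay inside genes but away from their starts. A gene was overlapped by 393 domains, and 263 (56.8%) overlapped genes without holding a start. The remaining 70 (15.1%) touched no annotated gene. A start lay in 130 domains (28.1%), against 34.4% of 1 to 3 kb peaks and 27.6% of 3 to 8 kb peaks. Per Mb of peak there were 40.4 starts in domains, 108 in 3 to 8 kb peaks and 308 in 1 to 3 kb peaks, so the longer regions held mostly sequence between and within genes. Exons, introns and untranslated regions were not analysed here.

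Several genes held a string of domains. ARID5B, a DNA-binding cofactor, and MSI2, an RNA-binding protein of stem and progenitor cells, held 6 each, and ETV6, an ETS-family repressor, held 5. CUX1, a homeodomain factor, RNGTT, the mRNA-capping enzyme, UBAC2 and the immunoglobulin lambda locus IGL held 4 each. The T-cell receptor alpha locus TRA, the kinase gene BLK, TOX and ZCCHC7 were among those with 3. Chromosome 2 carried the most domains, 42, and chromosome 1 carried 39.

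Before any comparison, the H3K27ac libraries had to be set against each other. Total counts in H3K27ac peaks were 4360660 to 5410292 per library, and in H3K4me3 peaks 9686420 to 12327122. Over the counts of the 463 domains, the chi-square per degree of freedom between libraries of one group was 2.48 for DMSO and 1.57 for 500 nM, but 14.5 for 150 nM. The 150 nM library of replicate 1 stood at 2.06 from DMSO replicate 1, and that of replicate 2 at 10.5. The libraries also split on 5 small unplaced contigs chosen for that split. Reads there were 71.6 CPM of DMSO replicate 2 and 45.9 CPM of 150 nM replicate 2, against 322 to 446 in the other 4. The 150 nM libraries were less alike in these domains than DMSO and 500 nM libraries were. H3K27ac calls at 500 nM are therefore given from all 6 libraries and, where it changes the call, from the 4 libraries of DMSO and 500 nM. No cause of this split was tested.

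The cell identity of the line was checked against marker genes. All 8 B-cell markers had an H3K27ac peak on the gene, as did 3 of 7 T-cell, 1 of 5 epithelial and 0 of 6 myeloid markers. The domains covered 3 B-cell markers (PAX5, EBF1 and BLK) and none of the other lists.

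At 150 nM no domain was called different from DMSO by edgeR's quasi-likelihood test at an adjusted p under 0.05, against 0.00185% of all 54037 tested H3K27ac peaks. At an unadjusted p under 0.05 there were 11 domains (2.38%), against 3.94% of all peaks, and DESeq2 called 0. Both 150 nM libraries lay above both DMSO libraries in 36 domains (14.9% of all peaks) and below in 51 (15.6% of all peaks), which is 7.78% and 11.02% of the domains. Fold changes were small: the lowest log2 value was -0.28, at chr16:9071369-9079710, followed by GPATCH2L at -0.24 and B4GALT5 at -0.23. The highest were LOC124904243 at 0.20, the MADS-box factor gene MEF2D at 0.18 and the adenosine deaminase gene ADA at 0.17. This zero rested on the pair of 150 nM libraries. Against DMSO, 150 nM replicate 2 alone gave 60 called domains (5 higher and 55 lower, 13.0%, against 0.849% of all peaks) and replicate 1 alone gave 0, each on the assumption that a lone library varies like the other groups.

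At 500 nM, 8 domains differed from DMSO, 3 higher and 5 lower. That is 1.73% of the domains, against 0.923% of all tested peaks (0.692% higher and 0.231% lower), 1.71% of 14830 peaks of 1 to 3 kb (192 higher and 61 lower) and 2.93% of 3 to 8 kb peaks. The share in the domains thus stood beside that of the narrower peaks named in the comparison and is not a result about width. Of 165 peaks of 1 to 3 kb with at least the count of the weakest domain, 3 (1.82%) were called. At an unadjusted p under 0.05 there were 83 domains (17.9%), against 11.5% of all peaks. DESeq2 called 2 of the 463 domains, both lower, against 0.211% of all peaks.

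The spread of H3K27ac fold changes narrowed with width. From the 5th to the 95th percentile, log2 fold changes at 500 nM against DMSO ran from -0.23 to 0.20 in the domains and from -0.40 to 0.43 in 1 to 3 kb peaks. The standard error narrowed alongside, with a median of 0.085 in the domains and 0.17 in 1 to 3 kb peaks. At 500 nM against DMSO no domain reached a 1.5-fold difference, and 484 of the 1 to 3 kb peaks did. At 500 nM against 150 nM 1 domain did, chr16:9071369-9079710, at 0.73 on the log2 scale. The medians lay near 0 in every comparison. At 150 nM against DMSO the domains had a median log2 fold change of -0.02, and 1 to 3 kb peaks 0.01, a difference of -0.030. At 500 nM against DMSO the difference was -0.015 and at 500 nM against 150 nM it was 0.020, each below the 0.0375 SD of the same difference between libraries of a group. Compared with only the 165 peaks of 1 to 3 kb with a domain's count, it was -0.0695 (150 nM) and -0.0540 (500 nM) against DMSO. Both lay beyond 0.0375, but that SD is of the difference from all 1 to 3 kb peaks. No SD between libraries was computed for the 165. These 3 comparisons share libraries and are not independent.

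**Figure D1:**
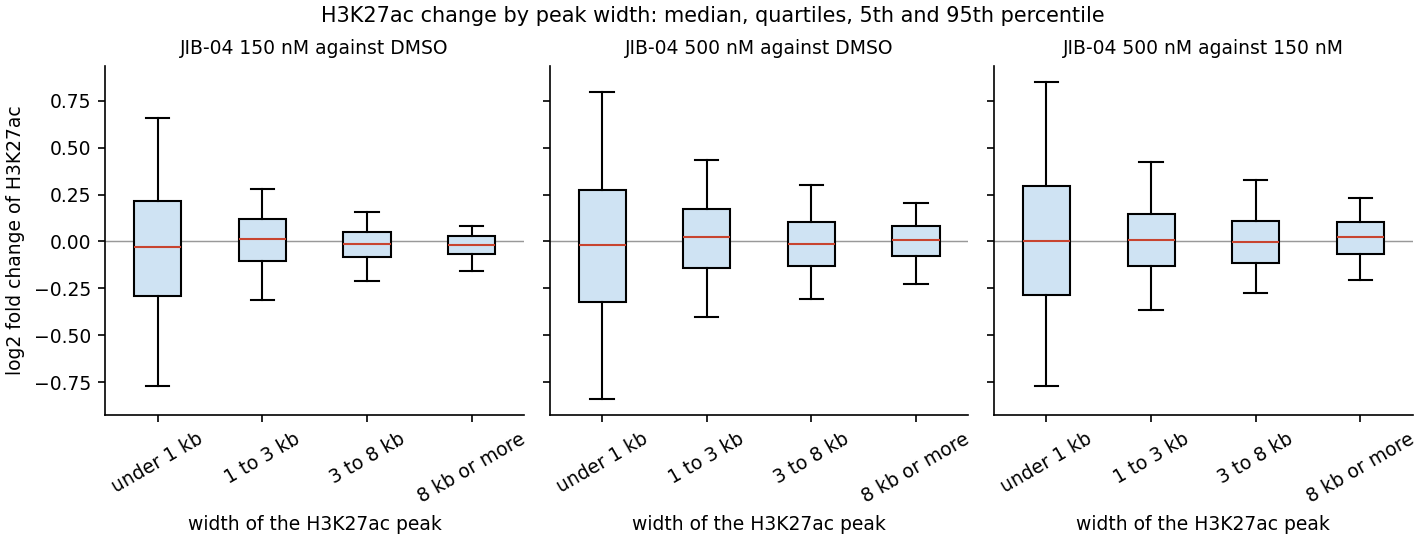
Log2 fold change of H3K27ac (y axis) by peak width class (x axis) for the 3 comparisons; boxes give the quartiles, red lines the median and whiskers the 5th and 95th percentiles over tested peaks. The medians lie near 0 in every class, and the whiskers draw in from the narrow peaks to the domains of 8 kb or more, where they reach -0.23 and 0.20 with 500 nM against DMSO.

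The share of all H3K27ac peak reads that fell in the domains gave the same picture by library. It was 13.11% ± 0.090 (SD, n = 2) with DMSO, 13.01% ± 0.232 with 150 nM and 13.09% ± 0.181 with 500 nM. The groups overlapped, so no shift of acetylation into or out of the domains as a whole was seen within this spread. CPM is scaled to the reads in peaks, so a change shared by every peak cannot be seen.

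The strongest called loss lay in no gene, at chr5:56681394-56690603. H3K27ac there was 186 and 182 CPM in the libraries with DMSO, 173 and 160.4 with 150 nM, and 134 in both at 500 nM. All 500 nM values lay below all others, and the log2 fold change against DMSO was -0.46 (SE 0.090, edgeR adjusted p = 0.00192). In SEC14L1, a gene of the SEC14-like lipid-transfer family, the domain chr17:77204601-77214084 had 312 and 323 CPM with DMSO, 288 and 319 with 150 nM, and 250.5 and 239 with 500 nM. It fell by 0.38 on the log2 scale (SE 0.080, edgeR adjusted p = 0.00569) and was also lower at 500 nM than at 150 nM.

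In ASAP1, which encodes an activator of the GTPase activity of Arf proteins, the domain chr8:130051362-130061209 was the most acetylated of the 8. It read 581 CPM in either DMSO library, 559.5 and 545.5 with 150 nM, and 478 and 474 with 500 nM. The 150 nM values lay between the others without overlap, and the log2 fold change of 500 nM from DMSO was -0.29 (SE 0.069, edgeR adjusted p = 0.0208). The remaining losses, chr6:15898348-15906906 (-0.40) and chr12:14150012-14159306 (-0.37), overlapped no gene.

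The strongest called gain also lay outside genes, at chr16:9071369-9079710. It had 103 and 108 CPM with DMSO, 88.4 and 85.2 with 150 nM, and 138.5 and 149 with 500 nM. The doses lay on opposite sides of DMSO, with a log2 fold change of -0.28 at 150 nM, which was not called, and 0.45 at 500 nM (SE 0.097, edgeR adjusted p = 0.00717). CD81 encodes a tetraspanin of the B-cell surface. Its domain chr11:2384624-2395313 had 249 and 278 CPM with DMSO, 252 and 315.5 with 150 nM, and 327 and 341 with 500 nM, a log2 rise of 0.34 (SE 0.086, edgeR adjusted p = 0.0302).

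At the immunoglobulin lambda locus, the domain chr22:22890991-22900106 over IGLL5, IGLJ1 and IGLC1 had 158 and 169.5 CPM with DMSO, 173 and 193 with 150 nM, and 206 and 209 with 500 nM. The 3 groups did not overlap and stood in order of dose, with a log2 fold change of 0.34 at 500 nM against DMSO (SE 0.088, edgeR adjusted p = 0.0397). The light-chain loci are repetitive, and reads shared between the near-identical constant genes make single-gene assignment there uncertain.

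Between the doses, 500 nM against 150 nM, 8 domains were called (1.73%, 3 higher and 5 lower), against 1.27% of all peaks (1.09% higher and 0.185% lower) and 2.23% of 1 to 3 kb peaks. At an unadjusted p under 0.05 there were 85 (18.4%), against 10.2% of all peaks. The 500 nM libraries lay above both 150 nM libraries in 115 domains (24.8%) and below them in 91 (19.65%), against 19.3% of all peaks each way. In 4 of them DMSO also differed from 500 nM: SEC14L1 and the regions on chromosomes 6, 12 and 16 above. The other 4 were ZC3H12D, of the Regnase RNase family (-0.36, edgeR adjusted p = 0.0136), chr13:41496118-41504598 (-0.34), chr2:213225551-213245722 (0.37) and a domain in ARID5B, chr10:61984077-61996752 (0.33). In the chromosome 2 domain, 150 nM replicate 2 read 268 CPM, and the other 5 libraries 358 to 447. Of the 12 domains called in either comparison, none held a gene start, 6 overlapped no gene and 9 were under 10 kb wide. Of all 463 domains, 28.1% held a start, 15.1% touched no gene and 206 were at least 10 kb wide. Domains with starts, such as those over ADM and LAPTM5, were called from the 4 libraries of DMSO and 500 nM. Between the doses, the 4 libraries of 150 nM and 500 nM alone gave 2 called domains (0.432%), against 0.837% of all peaks. Without 150 nM replicate 1 there were 131 (94 higher and 37 lower, against 3.53% of all peaks), and without replicate 2 there were 33 (against 1.53%).

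**Figure D2:**
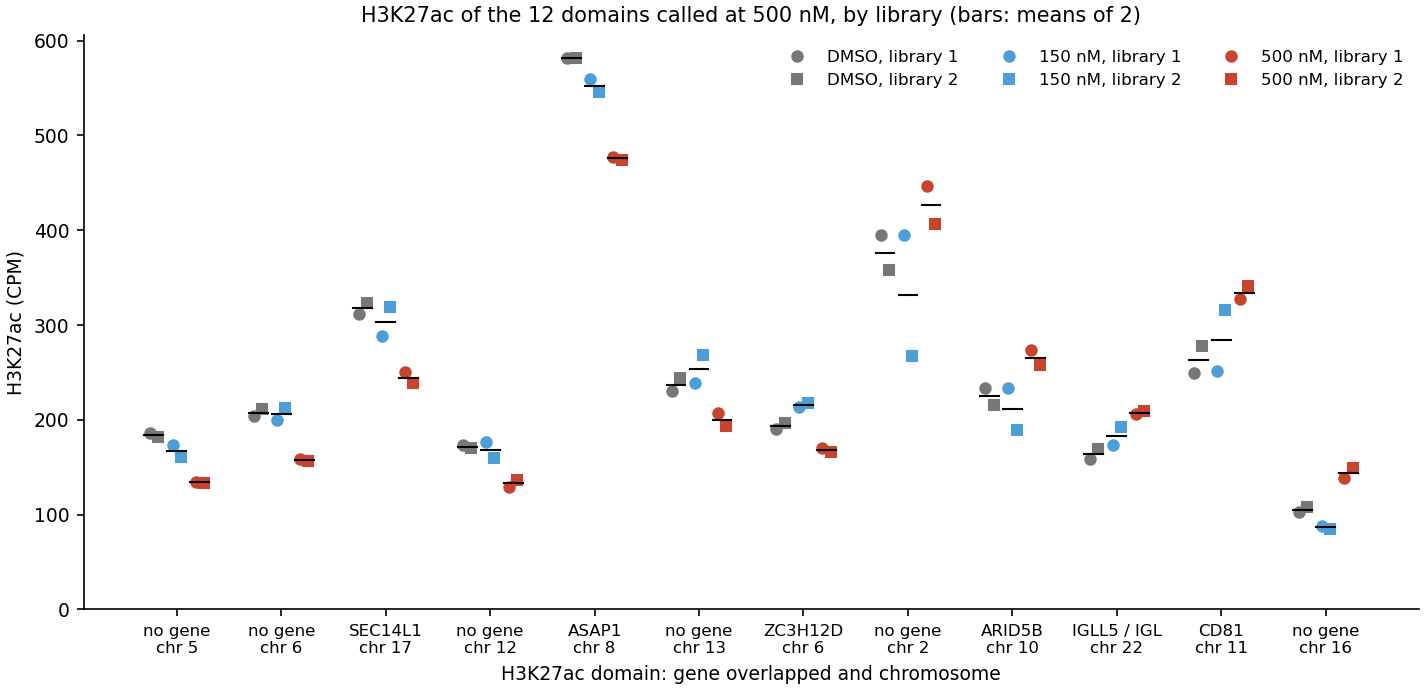
H3K27ac in CPM (y axis) of the 12 domains called at 500 nM against DMSO or against 150 nM (x axis), with 1 point per library (circles replicate 1, squares replicate 2) and bars at the mean of 2. ASAP1 falls from 581 to 474 CPM without overlap of the groups, and at chr 2 a single 150 nM library lies apart at 268 CPM.

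The 150 nM libraries also set how many domains were called between 500 nM and DMSO, because all 6 libraries share one estimate of spread. From the 4 libraries of that contrast alone, 74 domains were called (16.0%, 36 higher and 38 lower), against 4.12% of all tested peaks, 14.1% of 3 to 8 kb peaks and 6.76% of 1 to 3 kb peaks. Of the 165 peaks of 1 to 3 kb with at least the count of the weakest domain, 16 (9.7%) were called. The differences between these shares were not tested. All 8 domains above were among the 74. The median standard error in the domains fell from 0.085 to 0.0597, and the fold changes moved little. With one 150 nM library left out in turn the count was 75 and 73 (against 3.18% and 3.05% of all peaks). Leaving out a DMSO or 500 nM library left a lone library on that side of the contrast. Calls then fell in the domains and over all tested peaks alike.

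Some genes with several domains had all of them on one side of DMSO. All 3 domains in ZCCHC7, a subunit of the nuclear RNA surveillance complex, were higher in this larger set (0.36, 0.29 and 0.26 on the log2 scale). The first had 128 and 99.1 CPM with DMSO, 146 and 75.6 with 150 nM, and 154 and 137 with 500 nM. In all 3, DMSO replicate 2 and 150 nM replicate 2 were the lowest, the libraries that were also low on the 5 unplaced contigs. How far that split contributed to the ZCCHC7 differences was not tested. The neighbouring PAX5 domain was lower (-0.33, edgeR adjusted p = 2.18e-05). Both light-chain loci were higher, IGK at 0.23 and the widest IGL domain at 0.21. Among genes with roles in B-cell signalling, RASGRP3, an activator of Ras, and VAV3, a guanine nucleotide exchange factor, were higher (0.28 and 0.29). In VAV3 too, DMSO replicate 2 (123 CPM) and 150 nM replicate 2 (105 CPM) were the lowest libraries. The Fc receptor-like gene FCRL3 was lower (-0.22). The 4 domains in the chromosome 8 window from 95 to 96 Mb, over NDUFAF6, PLEKHF2 and LINC01298, were all lower in both 500 nM libraries than in both DMSO libraries, by -0.23 to -0.13. A further NDUFAF6 domain just outside that window, chr8:94957236-94965502, was higher in the larger set (0.16, edgeR adjusted p = 0.0184). The 4 in CUX1 were lower too (-0.21 to -0.06), whereas the 5 in ETV6 (0.06 to 0.11) and the 4 in IGL (0.11 to 0.34) were all higher. Non-overlap of this kind is common, with 140 domains below (30.2%) and 151 above (32.6%), against 22.2% and 22.4% of all peaks.

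Of the 10 widest domains, none was called at 500 nM against DMSO with all 6 libraries, and 5 were with the 4 libraries of the contrast (4 higher and 1 lower). The fit of 4 libraries called 16.0% of all domains and 4.12% of all tested peaks. The widest, chr3:187934472-187988492, spans 54021 bp over LINC01991 between BCL6, the master repressor of the germinal-centre programme, and LPP. It had 1570 and 1601 CPM with DMSO, 1580 and 1538 with 150 nM, and 1577 and 1549 with 500 nM. The groups overlapped (log2 fold change -0.02, edgeR adjusted p = 0.933). The domain inside BCL2, the anti-apoptotic gene, spans 37192 bp (chr18:63126157-63163348), with 1618 and 1713 CPM with DMSO, 1580 and 1638 with 150 nM, and 1692 and 1662 with 500 nM. Here too the groups overlapped.

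The light-chain loci, which B cells transcribe at very high rates, held 2 of the 6 domains among the 10 widest whose DMSO and 500 nM libraries did not overlap. Of all domains, 32.6% lay above and 30.2% below DMSO without overlap, and of all peaks 22.4% and 22.2%. The IGL domain chr22:22909010-22947296 had 1704 and 1801 CPM with DMSO, 1740 and 1921 with 150 nM, and 2032 and 2035 with 500 nM (0.21, edgeR adjusted p = 0.0562). The IGK domain chr2:88829333-88862995 had 974.5 and 1020 CPM with DMSO, 1066 and 929 with 150 nM, and 1197 and 1147 with 500 nM (0.23, edgeR adjusted p = 0.0689). Neither passed the threshold with all 6 libraries, and both did with the 4 of the contrast (edgeR adjusted p = 6.02e-05 and 3.82e-05). The others of the 10 widest were C14orf132 (0.04), a gene-free region on chromosome 3 (0.21), ETV6 (0.11), PLEKHF2 (-0.13), MEGF11 (0.14) and the N4BP2 and RHOH domain (-0.04), none of them called with all 6 libraries. With 4 libraries the region on chromosome 3 (edgeR adjusted p = 0.000945), PLEKHF2 (0.0347) and MEGF11 (0.0474) were called.

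Per kb, the 3 most acetylated domains were neighbours on chromosome 8: NDUFAF6 with MIR3150A and MIR3150B at 92.1 CPM per kb, LINC01298 at 85.5 and a second NDUFAF6 domain at 82.7. The least acetylated were ROBO2 at 8.24, KANK1 at 9.5 and QTMAN at 9.65. None of these 6 was called with all 6 libraries. With the 4 of DMSO and 500 nM, the 3 most acetylated were called lower, at -0.21, -0.23 and -0.17 in the order above (edgeR adjusted p = 0.000527, 8.45e-05 and 0.00812).

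Genes of the germinal-centre list, mostly transcription factors, were the most often covered, 11 of 24 in 12 domains. They were PAX5, EBF1, MEF2B, MEF2C, TCF3, IKZF1, IKZF3, ETS1, RUNX3, FOXP1 and KLHL6, the last not a transcription factor. None of the 12 was called for H3K27ac with all 6 libraries, and PAX5 alone was called at 500 nM with 4, with a median log2 fold change of 0.04 at 500 nM against DMSO beside 0.01 over all domains. PAX5, which maintains B-cell identity, was the lowest. Its domain chr9:36999045-37007634 had 216 and 242 CPM with DMSO, 214 and 227 with 150 nM, and 192 and 175 with 500 nM (log2 fold change -0.32, edgeR adjusted p = 0.0529). The 500 nM values lay below the rest without overlap, but the difference missed the threshold unless the 150 nM libraries were left out.

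Fewer genes of the other lists were covered. Of 22 genes of the B-cell receptor and surface, 3 were: the Src-family kinase gene BLK with 3 domains, the phospholipase PLCG2, and TNFRSF13B, the TACI receptor. Of 15 survival and cell-cycle genes the domains covered BCL2, with 2 domains, and the antiproliferative gene BTG2. CIITA, the master activator of MHC class II, was the only one of 10 in its list, with 191 and 200 CPM with DMSO, 185 and 182 with 150 nM, and 166 and 159 with 500 nM (-0.27, edgeR adjusted p = 0.137). The plasma-cell chaperone MZB1 (1 of 8) and 3 of 14 non-coding RNA genes (MIR142, its host MIR142HG and NEAT1) were covered too. None of these domains was called for H3K27ac with all 6 libraries. With the 4 of DMSO and 500 nM, CIITA was called lower (-0.28, edgeR adjusted p = 0.00144), and the MIR142 and NEAT1 domains were called higher. No gene of the NF-kB (12), immediate-early (22), Jumonji demethylase (22) or mutated chromatin regulator (11) lists lay in a domain.

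The MIR142 domain, chr17:58325519-58346964, is 21446 bp wide and carries the 2 mature sequences printed above. H3K27ac there was 793 and 864 CPM with DMSO, 830 and 942 with 150 nM, and 960.0 and 941 with 500 nM. The 500 nM values overlapped those of 150 nM replicate 2, and the log2 fold change against DMSO was 0.20 (edgeR adjusted p = 0.172 with 6 libraries and 0.00162 with 4). The NEAT1 domain, over the scaffold RNA of paraspeckles, had 401 and 432 CPM with DMSO and 482 and 487 with 500 nM (0.22, edgeR adjusted p = 0.183 with 6 libraries and 0.00239 with 4).

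H3K4me3 was not used to choose the domains and gave an independent readout of them. It marked 335 of the 463 domains with at least 1 peak, 178 of them with more than 1 and up to 9, and 128 with none. Among the 333 domains without a start, 214 still held an H3K4me3 peak. H3K4me3 peaks covered 24.9% of the length of the domains. They numbered 675, of which 650 passed the filter on low counts.

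H3K4me3 in the domains fell at 500 nM. Of the 650 tested peaks, 311 (47.85%) were lower than in DMSO and 25 (3.85%) higher by edgeR, against 18.7% lower and 20.7% higher among all 20402 H3K4me3 peaks. In the domains the log2 fold change had a median of -0.29, and over all peaks one of -0.01. Against 150 nM, 326 (50.2%) were lower and 27 (4.15%) higher, against 18.6% and 20.5% of all peaks. At 150 nM against DMSO no H3K4me3 peak was called in the domains or elsewhere (0.0% of 20402), and DESeq2 called 0 in the domains. At an unadjusted p under 0.05 there were 57 (8.77%), against 4.66% of all peaks. The 500 nM comparisons share the 500 nM libraries. DESeq2, tested per peak in the same way, called 196 lower and 6 higher at 500 nM against DMSO, against 7.25% lower and 9.8% higher of all peaks.

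The share of lowered H3K4me3 peaks differed by the width of the H3K27ac peak beneath them. H3K4me3 peaks touching no H3K27ac peak were lower in 2.95% and higher in 49.9% of 4203. Over H3K27ac peaks under 1 kb the shares were 10.7% and 23.1%, over 1 to 3 kb 23.9% and 8.89%, and over 3 to 8 kb 37.9% and 8.02%. The domains continued this order with 47.85% lower and 3.85% higher. Near a gene start (within 1000 bp) 59.4% of 138 peaks in domains were lower, and away from starts 44.7% of 512, so the order held in both positions. The shares are counts over peaks of the same libraries, and their differences were not tested.

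**Figure D3:**
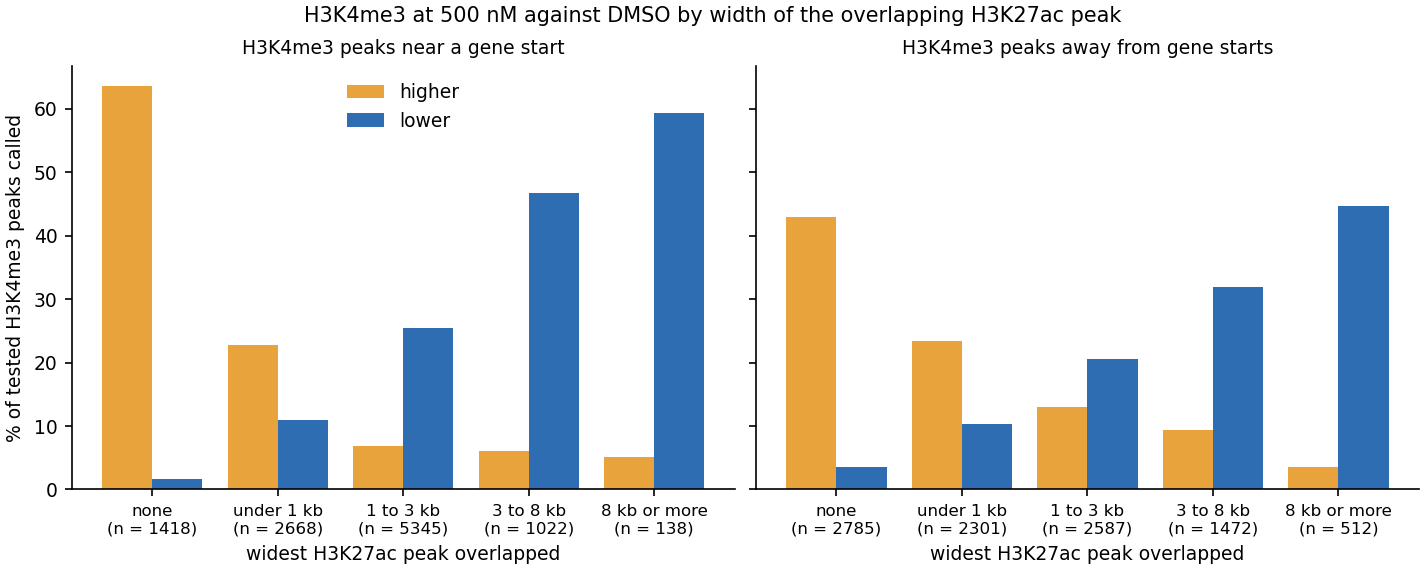
Percent of tested H3K4me3 peaks called higher (orange) or lower (blue) at 500 nM against DMSO (y axis) by the width of the widest H3K27ac peak they overlap (x axis), near gene starts (left) and away from them (right). Lower calls become more frequent and higher calls less frequent from no H3K27ac peak to domains of 8 kb or more, where 59.4% are lower near starts and 44.7% away from them.

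Width and strength of the H3K4me3 peak itself went along with the calls. Of the H3K4me3 peaks of 1 to 3 kb, 66.7% were lower in the domains and 18.2% elsewhere, and of those of 3 to 8 kb 74.6% and 45.6%. Of the H3K4me3 peaks of at least 8 kb, 65.0% of 20 in domains and 67.7% of 31 elsewhere were lower, which does not set the domains apart. Among peaks with a mean of at least 20 CPM, 161 of 214 in the domains were lower (75.2%) and 11 higher (5.14%), against 25.9% and 12.6% of all 11344 such peaks. Of these 214, 15 were lowered at least 2-fold and 0 raised as much. The share of all H3K4me3 reads that lay in domain peaks was 2.70% and 2.598% in the DMSO libraries, 2.73% and 2.67% at 150 nM, and 2.33% and 2.24% at 500 nM. Both 500 nM libraries lay below the other 4, while the corresponding share of H3K27ac reads did not move beyond its spread.

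Most domains with lowered H3K4me3 had no called difference in H3K27ac. The same held for the domains at large, of which 8 of 463 (1.73%) were called with all 6 libraries. Taking the strongest H3K4me3 peak of each of 330 domains, 197 were lower at 500 nM, 15 higher and 118 not called. In 195 of the 197 H3K27ac of the domain was not called, and in 1 it was also lower, ASAP1. The ASAP1 H3K4me3 peak was narrow (338 bp) and weak, with 5.88 and 4.91 CPM with DMSO and 3.83 and 3.27 with 500 nM. It was called by edgeR (adjusted p = 0.0255) but not by DESeq2 (adjusted p = 0.235). In the remaining 1 of the 197, CD81, H3K27ac rose while H3K4me3 fell from 156 and 146 CPM with DMSO to 107 and 106 with 500 nM (-0.51, edgeR adjusted p = 2.03e-16). With H3K27ac from the 4 libraries of the contrast, 19 of the 197 were also lower (9.645%), 11 higher and 167 not called, and CIITA, ADM and PLEKHF2 were among the 19. Of the 118 domains whose H3K4me3 was not called, 5 were lower in H3K27ac (4.24%) and 11 higher. Of the 133 domains with no tested H3K4me3 peak, 14 were lower (10.5%) and 12 higher. Over all 463 domains the same fit called 8.21% lower, so the 9.645% stood near the share of the domains at large. The differences between these shares were not tested. The median H3K27ac log2 fold change over the 197 was -0.01, and across the 330 domains the fold changes of the 2 marks had a Spearman correlation of 0.196, over peaks that share a treatment contrast.

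**Figure D4:**
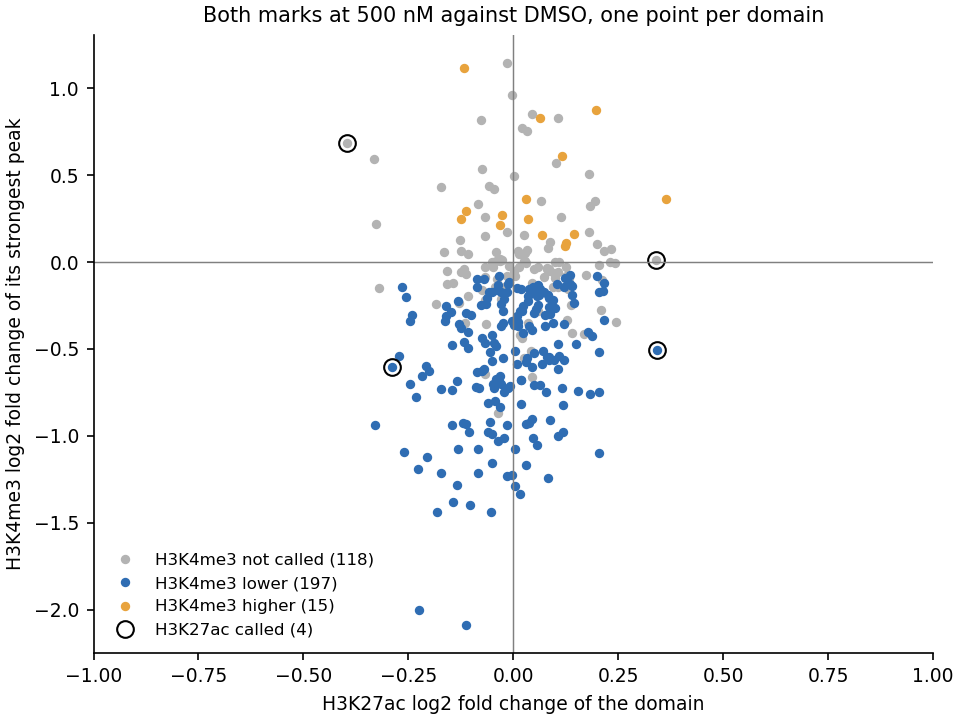
Log2 fold change at 500 nM against DMSO of H3K27ac (x axis) and of the strongest H3K4me3 peak (y axis), 1 point for each of 330 domains, coloured by the H3K4me3 call and ringed where H3K27ac was called. The cloud is narrow in H3K27ac and reaches down to -2.09 in H3K4me3, with 197 lower and 15 higher.

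The largest H3K4me3 losses among well-covered peaks (a mean of at least 20 CPM), named after their values were seen, were spread over genes of unlike function. BTG4, of the BTG antiproliferative family, led. Its peak chr11:111434732-111437207 had 86.2 and 81.7 CPM with DMSO, 92.4 and 84.6 with 150 nM, and 21.3 and 18.1 with 500 nM, a log2 fold change of -2.09 (SE 0.068, edgeR adjusted p = 1.63e-33). Both 500 nM libraries lay far below the other 4, and the H3K27ac of the same domain stood at -0.11. In CUX1 the peak chr7:101989728-101992673 had 41.6 and 36.1 CPM with DMSO, 45.0 and 38.4 with 150 nM, and 15.3 and 14.2 with 500 nM (-1.40, edgeR adjusted p = 1.29e-19).

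The peak at the ADM start, whose promoter is printed above, was both broad (8515 bp) and strong. ADM encodes the vasoactive peptide adrenomedullin, and the start of SBF2 lies under the same peak. It had 286.5 and 283 CPM with DMSO, 299 and 284 with 150 nM, and 139 and 127 with 500 nM, a log2 fold change of -1.10 (SE 0.035, edgeR adjusted p = 5.70e-34). Its mean went from 285.0 ± 2.23 to 133 ± 8.34 CPM (SD, n = 2). CSK, the kinase that restrains Src-family kinases, had 45.2 and 44.2 CPM with DMSO, 47.1 and 49.0 with 150 nM, and 24.8 and 20.9 with 500 nM (-0.96). In both, the 150 nM mean lay above that of DMSO and the 500 nM libraries lay below all others.

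Other well-covered peaks lowered by more than 1 on the log2 scale included LINC01814 (-1.31), a region without genes on chromosome 15 (-1.29) and the circadian factor gene NPAS2 (-1.23). DTX1, which acts in Notch signalling (-1.21), LOC105376892 (-1.19), SNX29 (-1.17) and RBM33 (-1.16) were among them too. The RBM33 domain is nearly filled by an H3K4me3 peak of 10422 bp far from a start, with 143 and 128 CPM with DMSO, 153 and 145 with 150 nM, and 64.4 and 57.4 with 500 nM. The NDUFAF6 domain with MIR3150A, the most acetylated per kb, also lost H3K4me3 (-1.12, edgeR adjusted p = 6.73e-30).

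Gains were few, and mostly small among peaks with a mean of at least 20 CPM. LAPTM5, a lysosomal membrane protein of blood cells that promotes degradation of antigen receptors, rose at its start (chr1:30753348-30758315) from 72.8 and 71.0 CPM with DMSO and 74.5 and 74.1 with 150 nM to 134 and 129.6 with 500 nM. The log2 fold change was 0.87 (SE 0.043, edgeR adjusted p = 3.69e-25), with H3K27ac of its domain at 0.20 (edgeR adjusted p = 0.176 with 6 libraries and 0.00237 with 4). ZBTB38, a zinc-finger protein that binds methylated DNA, had 115.5 and 104 CPM with DMSO, 115 and 107 with 150 nM, and 148 and 135 with 500 nM (0.36, edgeR adjusted p = 3.65e-10). Among peaks with a mean of at least 20 CPM, NIN (0.29), PPP2R5C (0.27), TCTN1 (0.25) and C14orf132 (0.25) followed by edgeR. DESeq2 called none of these (adjusted p = 0.147, 0.154, 0.171 and 0.119 in that order), though it did call LAPTM5 and ZBTB38. A ZCCHC7 peak just under that mean, at 19.8 CPM, stood at 0.36 (edgeR adjusted p = 0.00203, DESeq2 adjusted p = 0.097). Weaker gains were not ranked. Of the 93 protein-coding starts that lay in a domain and under an H3K4me3 peak, 62 were lower (66.7%), 6 higher (6.45%) and 25 not called. Of the 9729 such starts outside the domains 22.9% were lower and 14.6% higher.

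Within the gene lists, the called H3K4me3 peaks in domains were all lower. For genes of the germinal-centre list 7 of 17 tested peaks were lower and 0 higher, for B-cell receptor and surface genes 7 of 12 and for survival genes 5 of 8. Beside these, 47.85% of all tested peaks in domains and 18.7% of all H3K4me3 peaks were lower. The main H3K4me3 peak of BCL2 went from 185 and 174.5 CPM with DMSO and 193.5 and 181 with 150 nM to 125 and 114 with 500 nM (-0.59, edgeR adjusted p = 7.48e-19), in a domain whose H3K27ac was not called. At the BCL2 start, in its second domain, H3K4me3 stood at -0.08 and turned to 0.02 with loess scaling. CIITA (-0.54), PLCG2 (-0.49), TNFRSF13B (-0.36), IKZF3 (-0.30), TCF3 (-0.27), BTG2 (-0.19), IKZF1 (-0.15) and FOXP1 (-0.10) were also lower at their main peak by edgeR. DESeq2 did not call FOXP1 (adjusted p = 0.17) or the BCL2 start (adjusted p = 0.191). RUNX3, MZB1, PAX5, MEF2C and the strongest BLK peak were not called. In the 10 widest domains the main peak was lower by edgeR in 7, among them ETV6 (-0.47), LINC01991 (-0.21) and PLEKHF2 (-0.23), higher in C14orf132, and not called in IGK and the gene-free region on chromosome 3. Of the 7, DESeq2 did not call the IGL peak (-0.16, adjusted p = 0.118).

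**Figure D5:**
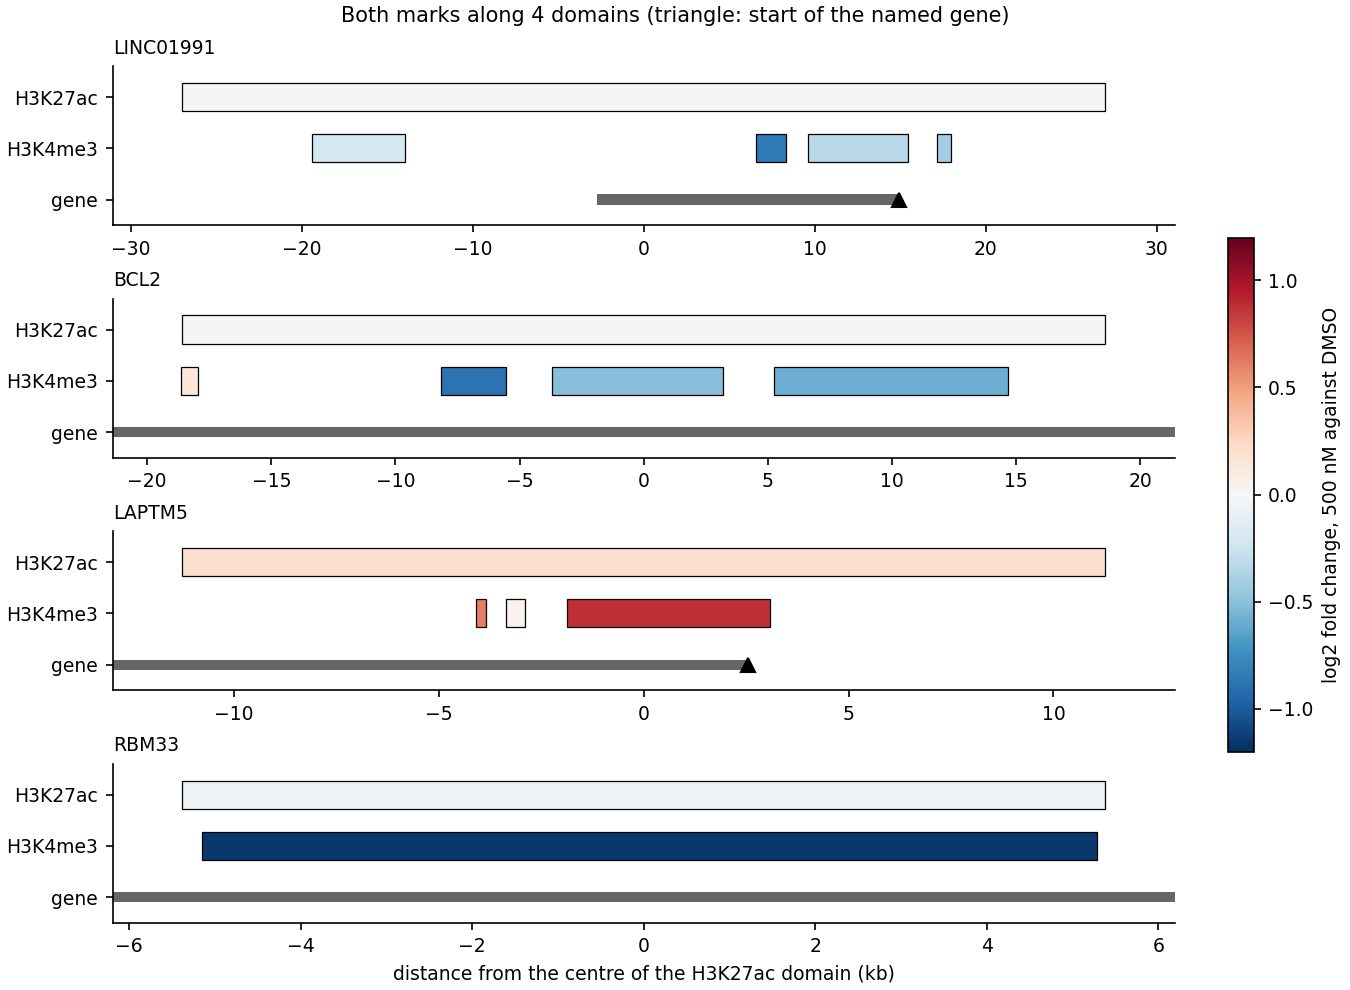
Maps of 4 domains to scale, with distance from the domain's centre in kb (x axis) and the H3K27ac domain, H3K4me3 peaks and gene body as bars, coloured by log2 fold change at 500 nM against DMSO; triangles mark the start of the named gene where it lies inside. H3K27ac is near 0 in LINC01991 and BCL2 while their H3K4me3 peaks are mostly lower, RBM33 is covered by 1 lowered peak at -1.16, and LAPTM5 is raised at its start by 0.87.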

How the data were processed

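OCI-Ly1 ChIP-seq libraries of H3K27ac and H3K4me3 were analysed (6 each); the 6 libraries each of input, H3K9me2 and H3K9me3 were not analysed here. The deposited tables hold read counts per consensus peak, not normalized; per the file headers they were made with featureCounts 2.0.1, unstranded, letting a read count in several peaks with a fraction of 0.2 of it inside. The headers record a paired option and the labels single 50 bp reads, so whether reads or fragments were counted is unclear. The submitters' processing notes name Trim Galore 0.6.7, BWA 0.7.17-r1188, Picard 2.27.4, MACS2 2.2.7.1, deepTools 3.5.1, edgeR 3.42.4 and GRCh38; how the consensus was made is not given in the sources used here. Starts are printed with 1 added.

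The test was that of edgeR 4.0.16 (R 4.3.3) with filterByExpr by group, TMM, glmQLFit and glmQLFTest, over all 6 libraries of a mark, with Benjamini-Hochberg adjustment over all peaks at 0.05. CPM is relative to tested peaks after TMM. The step was tested on simulated data. Genes and promoters are RefSeq (GRCh38.p14, 59792 genes; 35116 promoters); overlap needed 1 bp. Alternatives used DESeq2 1.42.0 and limma 3.58.1 (loess), and figures matplotlib 3.10.9.

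The domains, gene lists and tests were chosen with earlier results of these data known. Domains named were the 10 widest, those called (up to 10 per comparison) with the 3 highest and lowest fold changes, those over a listed gene, the 3 on each side of the threshold, the 3 most and least acetylated per kb, and their main H3K4me3 peaks; 1 listed gene is not reported here. That rule gave no promoter, since no called domain held a start; those printed, the 74 domains from 4 libraries and the largest H3K4me3 changes were named after their values were seen. Total counts limit precision, and PCR copies cannot be told from separate molecules. The labels do not say whether replicate numbers pair the libraries, and the main fit did not pair them.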

Additional observations from a re-analysis of the deposited data

Results flagged for a closer look

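One further H3K27ac row reached 8 kb but lies on an unplaced contig of chromosome 14 and so outside the rule. It is 12421 bp wide and was looked at because it showed a signal in rows that no comparison above uses. It had 247 and 220.2 CPM in the DMSO libraries, 184 and 186 at 150 nM, and 457 and 510.0 at 500 nM, or 234 ± 19.2, 185 ± 1.55 and 484 ± 37.2 (SD, n = 2). From DMSO to 500 nM it rose by 1.05 on the log2 scale (SE 0.081, edgeR adjusted p = 5.71e-13), and all 500 nM values lay above all others. The DMSO and 150 nM libraries lay between 184 and 247 CPM in this row, which is on none of the 5 contigs on which the libraries split.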

How the results depend on the processing

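The H3K27ac counts moved with most choices. For 500 nM against DMSO (8 domains), they were 13 with scaling by total count, 14 with loess offsets or no filter, 28 with the replicate block, 50 with a term for the split of the libraries on 5 unplaced contigs, 74 with only the 4 libraries, 2 with DESeq2 and 1 at a width of at least 10 kb; leaving out a library gave 0 to 75. For 500 nM against 150 nM (8), they were 13 with no filter, 5 at a mean count of at least 50, 25 with the replicate block, 27 with the split term, 2 with only the 4 libraries, 1 with DESeq2 and 2 at 10 kb; leaving out a library gave 1 to 131. For 150 nM against DMSO (0), leaving out a library gave 0 to 60. The median difference between domains and 1 to 3 kb peaks went from -0.030 to -0.0695 (150 nM) and from -0.015 to -0.0540 (500 nM, both against DMSO) when only 1 to 3 kb peaks with a domain's count were compared; leaving out a library gave -0.0629 to 0.0120 at 150 nM against DMSO and -0.0261 to 0.0557 between the doses, so its sign is not settled.

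H3K4me3 was steadier. For 500 nM against DMSO (336 peaks called), DESeq2 called 202, a width of at least 10 kb gave 193 of fewer peaks and leaving out a library 256 to 330; for 500 nM against 150 nM (353) the values were 228, 207 and 275 to 354. Of the 311 lowered peaks, 274 were also lower with total-count scaling, 286 with loess and 196 with DESeq2. With loess, 2 named peaks changed sign, the MIR142 domain at 0.00604 and the second BCL2 domain at 0.0230, neither called. Same-numbered libraries deviated together with correlations of 0.13, 0.0026 and 0.058 for H3K27ac, so the numbers were not taken to pair them; the block gave 346 and 359 H3K4me3 calls. The causes of these changes were not tested. With 2 libraries per group, small H3K27ac differences are not settled, since the calls moved with the libraries that set the spread.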
